A study of Mus musculus with 6 samples.

Results

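The genes described here are 9 CXC and CX3C chemokines measured in mouse embryo fibroblasts: Cxcl1, Cxcl2, Cxcl5, Cxcl9, Cxcl10, Cxcl12, Cxcl14, Cxcl16 and Cx3cl1. The array also measured 5 other CXC ligands, which are described apart further below. The 9 were taken as a gene family, by the transcript accession printed for each probe. No measured value entered that rule, but the members were chosen with earlier results of these data known. The 9 genes had 1 probe each, among 10568 named genes on an array of 19801 gene probes.

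Chemokines are small proteins, most of them secreted, that direct cell migration through receptors coupled to G proteins. The family is named by the spacing of its first cysteines, with 1 residue between them in CXC chemokines. Cxcl1, Cxcl2 and Cxcl5 carry the glutamate-leucine-arginine motif and attract neutrophils through Cxcr2. Cxcl9 and Cxcl10 are interferon-inducible ligands of Cxcr3, Cxcl12 is the stromal ligand of Cxcr4 and Ackr3, and Cxcl14 is a chemokine of epithelia and connective tissue. Cxcl16 and Cx3cl1 (fractalkine) are made as membrane-anchored proteins, act on Cxcr6 and Cx3cr1, and are released by the proteases Adam10 and Adam17. Fibroblasts are known as a source of several of these ligands in wounds, in inflamed tissue and in tumours.

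RNA came from fibroblasts deficient in p38α (p38α-/-, called KO here, n = 3 cultures) and from wild-type fibroblasts (WT, n = 3 cultures), both of a mixed 129/svev × C57Bl/6 background. p38α is the stress-activated protein kinase encoded by Mapk14. All 6 cultures, WT included, had been immortalised by the 3T3 protocol and stably transduced with the oncogene H-RasG12V, and were grown for 72 h before harvest. The genotypes were compared to ask how p38α, a tumour suppressor in this setting, acts through transcription. The labels do not say whether the cultures of a genotype were separately derived lines, so the p-values measure the spread between these cultures only, and genotype and the history of the immortalised lines cannot be told apart.

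Between 8677 and 10232 gene probes per array stood above background, the fewest on KO replicate 3, whose median local background, 61 intensity units, was above the 49 to 53 of the remaining arrays. Across probes, log2 values correlated at 0.986 to 0.996 between KO arrays, 0.996 to 0.997 between WT arrays and 0.950 to 0.963 between KO and WT arrays. Mapk14 had background-subtracted intensities of 17.6, 18.6 and 8.35 in KO, against 60.8, 70.6 and 68.8 in WT (log2 difference -0.94, SE 0.07, limma adjusted p = 7.85e-05), and where its probe lies relative to the deletion is not given. Of 7 fibroblast markers named on the array, Col1a2, Vim, Pdgfrb and Dcn were above background on every array, Thy1 and Lum were near background on every array, and the Pdgfra spots were masked on every array and not used. Among those detected, Vim was higher in KO (0.83, limma adjusted p = 8.82e-04). Pdgfrb (-0.56, adjusted p = 0.00120) and Dcn (-0.33, adjusted p = 0.00279) were lower, and Col1a2 did not pass (-0.29, adjusted p = 0.0856). No leukocyte, endothelial or epithelial defining marker among Ptprc, Itgam, Cd3e, Pecam1, Cdh5, Cdh1 and Epcam was above background on any array. Summed intensities of the 8 leukocyte markers, before normalization between arrays, were 1454 to 1938 in KO and 942 to 1319 in WT, nearly all of it from Cd14. On the normalized log2 scale Cd14 did not pass (0.32, limma adjusted p = 0.0751). Summed in the same way, the 6 endothelial markers gave 16.1 to 24.9 in KO and 19.7 to 25.1 in WT. For the 7 epithelial markers the sums were 2281 to 3349 in KO and 35.1 to 46.0 in WT, carried by Krt18 and Krt19, and the part of this difference in the chemokine results was not tested.

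Of the 9 chemokines, 3 were lower in KO (Cxcl1, Cxcl5 and Cxcl12), 1 was higher (Cxcl16), and 5 did not pass the threshold, an adjusted p of 0.05 in limma with Benjamini-Hochberg adjustment over 19608 probes. Over all probes tested, 22.5% passed, 12.1% lower and 10.4% higher in KO. None of the 5 other CXC ligands measured passed, so the share called among these 9 does not stand for all CXC ligands. KO and WT arrays did not overlap for 5 of the 9 members on the lower side, where 19.3% of all probes had such a separation, and for 1 on the higher side, where 16.6% had it (35.9% in either direction). The median difference of the members was -0.13 on the log2 scale, beside -0.01 over all probes. Near background on all 6 arrays were 3 members, Cxcl2, Cxcl9 and Cxcl14, and 8720 of the probes tested (44.5%). None of the 3 passed, and of all such probes 0.86% did. Missing calls among these do not show that the genes were unchanged. The same 4 members passed when any 1 array was left out, KO replicate 3 included. In RNA of a whole culture, fewer cells making a transcript and less transcript per cell cannot be told apart.

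**Figure D1:**
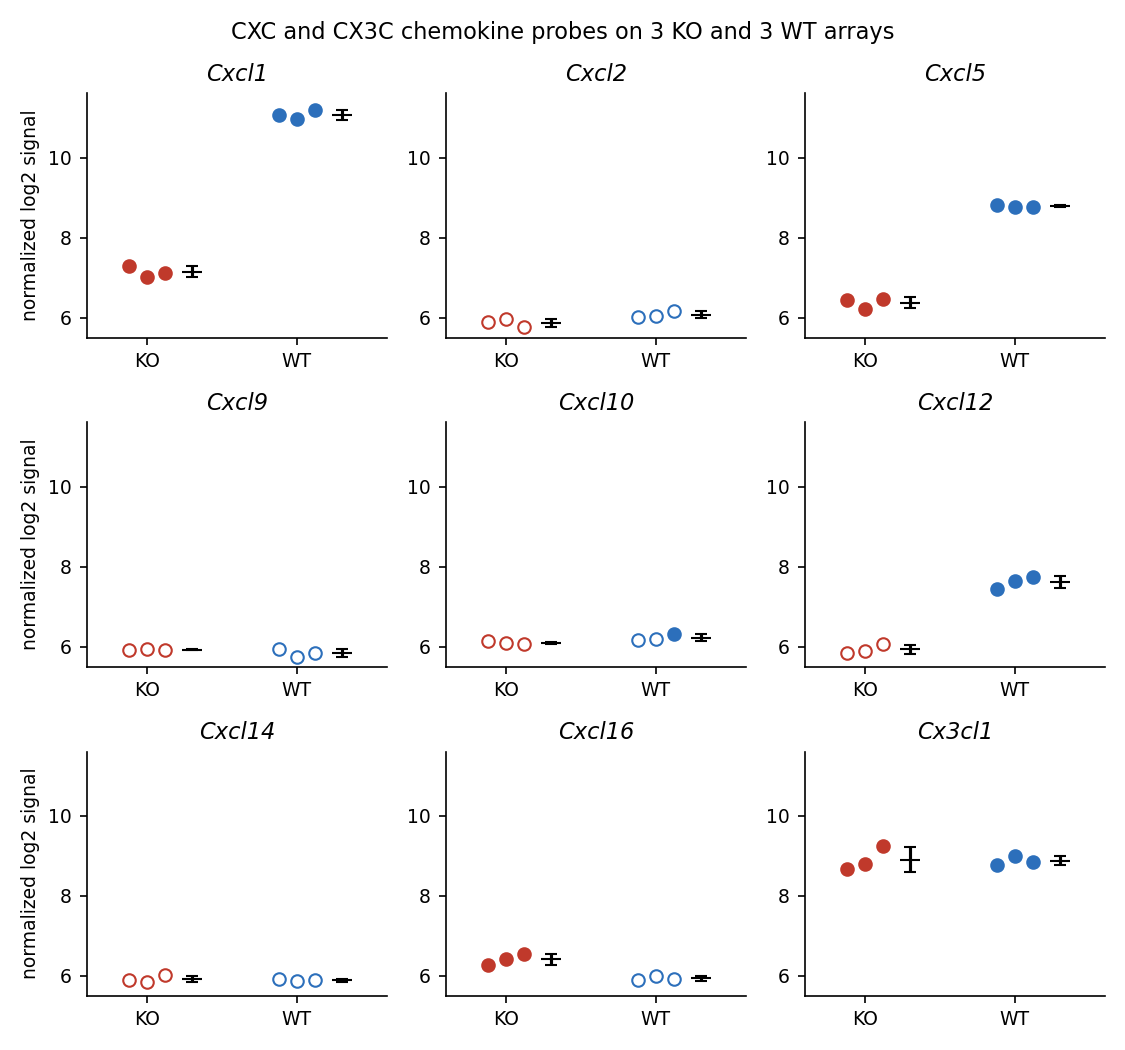
Normalized log2 signal of each chemokine probe on the 3 KO and 3 WT arrays. Filled points were above background, open points near background, and the black mark beside each group is the mean with its SD. Cxcl1, Cxcl5 and Cxcl12 are lower on every KO array than on any WT array, Cxcl16 is higher on every KO array, and Cx3cl1 overlaps.

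Cxcl1 differed most among the 9 chemokines. Its background-subtracted intensities were 121, 86.6 and 84.7 in KO replicates 1, 2 and 3, against 1841, 1811 and 1936 in WT. All 6 spots were above background, and the lowest WT array was far above the highest KO array. On the normalized log2 scale Cxcl1 averaged 7.15 ± 0.14 in KO and 11.07 ± 0.12 in WT (SD, n = 3). KO minus WT was -3.92 (SE 0.09, limma adjusted p = 1.41e-07), or 15.1-fold lower in KO. Only 2 of the 19608 probes had a more negative difference. Over the 16 alternative settings the difference lay between -4.52 and -3.76.

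Cxcl5, which shares the receptor Cxcr2 with Cxcl1, was also lower in KO. Its intensities were 38.1, 22.3 and 33.6 in KO, against 349.7, 366 and 317 in WT. The groups were well separated, and the probe remained above background on all 3 KO arrays. The normalized log2 means were 6.38 ± 0.14 in KO and 8.78 ± 0.02 in WT (SD, n = 3). KO minus WT was -2.40 (SE 0.08, limma adjusted p = 6.72e-07). The fitted fold of 5.28 lower in KO is at the small end of what the settings gave: with no offset added to the corrected signal the log2 difference was -3.57, and with the authors' normalized values -3.37. Only 24 probes had a more negative difference than Cxcl5.

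Cxcl2, the closest relative of Cxcl1 beside it on the chromosome, gave little signal in either genotype. Intensities were 4.81, 7.38 and -2.51 in KO, against 9.33, 10.5 and 15.4 in WT, and every spot was marked as near background. The highest KO array was below the lowest WT array, but the difference of -0.21 (SE 0.07, 95% interval -0.38 to -0.04) missed the threshold after adjustment (limma adjusted p = 0.0921). It passed with median scaling (-0.26, adjusted p = 0.0453), without background correction (-0.25, adjusted p = 0.0199) and with the authors' normalized values (-0.80, adjusted p = 0.0374). No fold is given, since both groups were near background. The sequences of the probes are not used here, so cross-hybridisation between these relatives was not tested.

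The sequence before the transcription start is shown for Cxcl1 and Cxcl2, because one was strongly lower and the other near background although the windows share their longest run, and for Cxcl12 and Cxcl10 as a lowered member and one near background on 5 of 6 arrays, from other branches of the family. The windows are the 250 bases before the start in RefSeq, build GRCm38.p6. An entry existed for 7 of the 9 members, all but Cxcl5 and Cxcl16. They lie at chr5:90890995-90891244 (plus strand) for Cxcl1, chr5:90903649-90903898 (plus strand) for Cxcl2, chr6:117168285-117168534 (plus strand) for Cxcl12 and chr5:92348890-92349139 (minus strand) for Cxcl10, each written 5′ to 3′ along the gene. Capitals mark matches to the kappaB consensus, the DNA motif bound by NF-kB, on either strand.
Cxcl1: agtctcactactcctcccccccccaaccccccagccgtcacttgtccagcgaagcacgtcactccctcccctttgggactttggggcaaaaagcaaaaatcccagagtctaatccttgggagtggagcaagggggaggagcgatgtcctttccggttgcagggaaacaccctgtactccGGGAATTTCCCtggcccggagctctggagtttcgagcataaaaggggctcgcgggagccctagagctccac
Cxcl2: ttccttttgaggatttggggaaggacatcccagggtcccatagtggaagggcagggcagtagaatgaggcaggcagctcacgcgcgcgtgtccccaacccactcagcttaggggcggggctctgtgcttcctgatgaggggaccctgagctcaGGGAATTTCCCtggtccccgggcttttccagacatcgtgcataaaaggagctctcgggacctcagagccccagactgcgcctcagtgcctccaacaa
Cxcl12: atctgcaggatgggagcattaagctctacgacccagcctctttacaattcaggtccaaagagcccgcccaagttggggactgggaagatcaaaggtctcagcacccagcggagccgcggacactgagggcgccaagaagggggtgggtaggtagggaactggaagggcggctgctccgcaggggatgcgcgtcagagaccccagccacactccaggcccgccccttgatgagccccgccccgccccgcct
Cxcl10: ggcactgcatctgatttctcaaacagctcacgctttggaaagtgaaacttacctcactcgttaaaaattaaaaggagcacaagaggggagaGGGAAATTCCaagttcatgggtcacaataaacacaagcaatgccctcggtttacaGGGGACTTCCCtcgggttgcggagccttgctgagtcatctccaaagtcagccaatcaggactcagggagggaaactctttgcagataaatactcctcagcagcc

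The Cxcl1 and Cxcl2 windows had the same match, GGGAATTTCC, starting 71 bases before the start in Cxcl1 and 97 bases before it in Cxcl2, overlapped by its reverse-strand match 1 base further on. It lies in a run of 14 bases that the windows share, the longest between any 2 of the 7 members. Cxcl10 had GGGAAATTCC at 159 bases and overlapping matches from 104 bases before its start, while the Cxcl12, Cxcl9, Cxcl14 and Cx3cl1 windows had none. A kappaB match was thus present for 3 of 7 members, and for 7.25% of 32851 such windows of all genes, counting both strands. TGANTCA, the AP-1 motif, was found for 1 member, Cxcl10 at 74 bases, beside 6.75% of all windows. The core of the interferon-stimulated response element, GAAA repeated after any 2 bases, was found for Cxcl10 and Cxcl14, beside 2.98% of all windows. The kappaB match was present in Cxcl1, strongly lower in KO, and in Cxcl2 and Cxcl10, near background on most arrays. It was absent from the window of Cxcl12, which was lower. Cxcl5 and Cxcl16, which also passed, had no window here, and a relation between match and difference was not tested. A match is a description of these letters and not a site shown to be bound.

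Cxcl12, the stromal chemokine that retains haematopoietic cells in bone marrow, was detected in WT only. Intensities were 3.57, 4.54 and 13.8 in KO, against 106, 138 and 137 in WT. All 3 KO spots were near background and all 3 WT spots above it, so the level in KO has only an upper bound. Normalized log2 means were 5.93 ± 0.11 in KO and 7.61 ± 0.15 in WT (SD, n = 3). KO minus WT was -1.68 (SE 0.09, limma adjusted p = 1.17e-05). Against the lowest signal counted as above background, Cxcl12 was at least 2.74-fold lower in KO. The fitted size depended strongly on how dim signals were treated, with -3.79 at offset 0 and -3.23 with the authors' normalized values. KO replicate 3 had the highest KO reading. Without it the difference was -1.74.

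The interferon-inducible ligands gave almost no signal. Cxcl9 read 5.90, 6.65 and 7.33 in KO and 6.09, -0.80 and 2.72 in WT, all near background and overlapping. Its difference was 0.09 (95% interval -0.06 to 0.24, limma adjusted p = 0.461). Cxcl10 read 18.2, 14.2 and 14.2 in KO and 15.7, 17.4 and 22.0 in WT, and only WT replicate 3 was marked above background. Although the normalized log2 values of the groups did not overlap, the Cxcl10 difference of -0.13 (95% interval -0.27 to 0.02) did not pass (limma adjusted p = 0.216). Cxcl14 read 4.98, 2.92 and 11.7 in KO and 5.46, 3.43 and 4.05 in WT, all near background. The Cxcl14 difference was 0.03 (95% interval -0.11 to 0.18, limma adjusted p = 0.825), and its sign changed with median scaling (-0.019), with array weights (-0.0093) and without KO replicate 3 (-0.017).

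The membrane-anchored chemokines differed from each other in detection. Cxcl16 read 26.3, 34.3 and 38.6 in KO, against 4.13, 8.62 and 5.69 in WT. All KO spots were above background and all WT spots near it, so Cxcl16 was the only member detected in KO alone. Normalized log2 means were 6.41 ± 0.14 in KO and 5.93 ± 0.05 in WT (SD, n = 3). KO minus WT was 0.48 (SE 0.08, limma adjusted p = 0.00383), and the bound was at least 1.15-fold higher. With offset 0 the difference was 1.70 and with the authors' normalized values 1.29, and it passed under all 16 alternatives.

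Cx3cl1 was the member bright in both genotypes that did not pass. It read 415, 461 and 544 in KO, against 339, 436 and 341 in WT, all above background. The KO range and the WT range overlapped, and KO replicate 3 was the highest of the 6. Normalized log2 means were 8.90 ± 0.31 in KO, the widest spread of any member, and 8.87 ± 0.12 in WT (SD, n = 3). The difference was 0.03 (95% interval -0.32 to 0.37, limma adjusted p = 0.941), an interval that allows from 1.29-fold higher to a ratio of 0.803 in KO. Without KO replicate 3 it was -0.15 (adjusted p = 0.213), without WT replicate 1 it was -0.03 (adjusted p = 0.956), and with array weights -0.10 (adjusted p = 0.507).

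**Figure D2:**
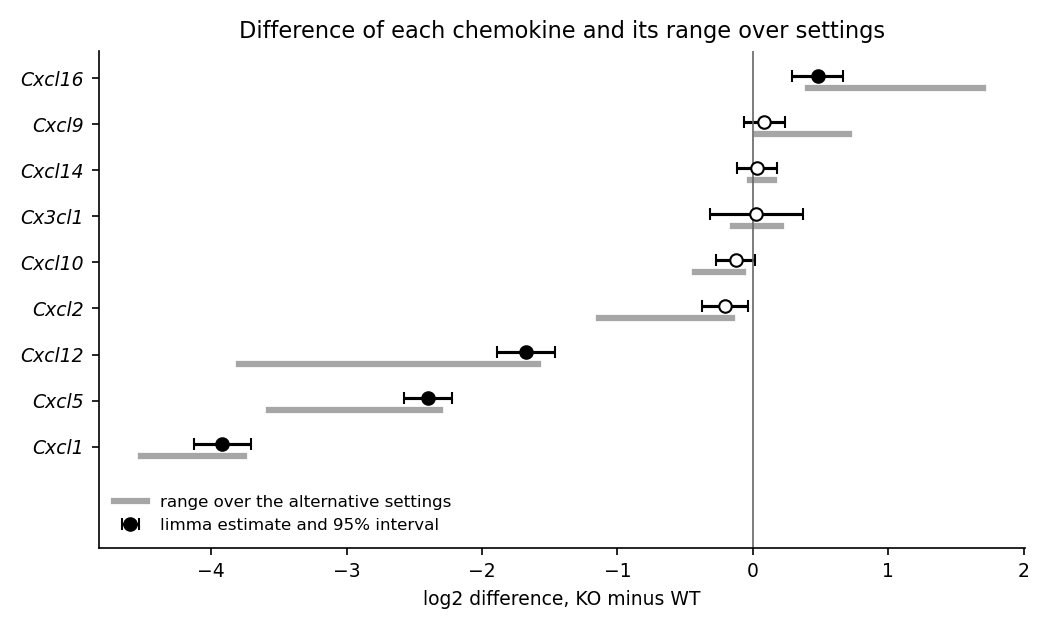
Log2 difference, KO minus WT, of the 9 chemokines, with the limma estimate and its 95% interval (filled where the adjusted p was under 0.05, open otherwise) and, as a grey line, the range over the alternative settings. Cxcl1, Cxcl5 and Cxcl12 lie below 0 and Cxcl16 above 0 over their whole ranges, and the widest grey lines belong to Cxcl12, Cxcl16 and Cxcl5.

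**Figure D3:**
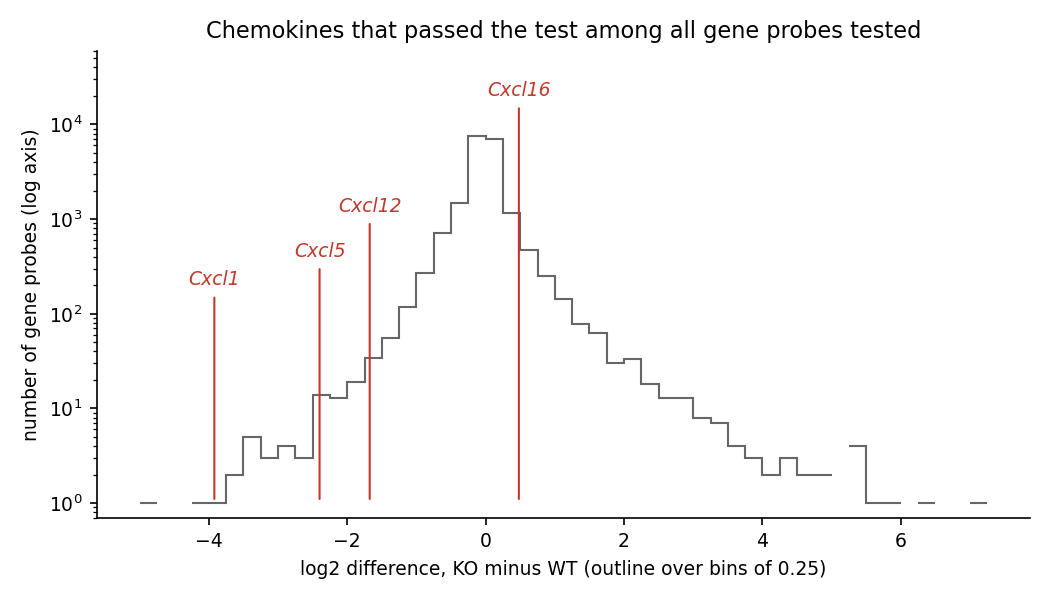
Number of gene probes (log axis) by log2 difference, KO minus WT, in bins of 0.25, with the 4 chemokines that passed marked. Cxcl1 at -3.92 stands near the lower end of all 19608 probes, while Cxcl16 at 0.48 lies in the shoulder of the distribution.

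On chromosome 5 the lowered genes Cxcl5 and Cxcl1 belong to a run of 7 neighbouring chemokine genes in the order Cxcl5, Ppbp, Pf4, Cxcl3, Cxcl15, Cxcl1 and Cxcl2 (order from a RefSeq table of GRCm38.p6, used for neighbours only). Between and beside them, Ppbp, Pf4, Cxcl15 and Cxcl2 were near background on all 6 arrays, with log2 differences of 0.01, -0.08, 0.05 and -0.21. Cxcl3 was not analysed here. Signal in this run was thus measured for Cxcl5 and Cxcl1 only, and both were lower. Other genes directly beside a member were Sdad1, next to Cxcl9, which was lower in KO (-0.96, SE 0.11, limma adjusted p = 4.46e-04), and Med11, next to Cxcl16, which did not pass (-0.03, adjusted p = 0.872). Neurog1, next to Cxcl14, was near background on all 6 arrays (-0.09). Cx3cl1 lies between the CC chemokine genes Ccl22 (-0.12, adjusted p = 0.609) and Ccl17 (-0.24, adjusted p = 0.0760), and neither of them passed.

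The genes most like each member were found by the root-mean-square distance between log2 values centred over the 6 arrays, among 5717 other genes above background on all arrays of at least 1 genotype. The values that chose them are those of the comparison itself, so this is a description. Nearest to Cxcl1 were Rhox5 (0.14), Rsrp1 (0.15) and Hoxb7 (0.22), with log2 differences of -3.72, -4.04 and -3.49. Nearest to Cxcl5 were H2-Bl (0.10), Zfp472 (0.10) and Foxd1 (0.13), and nearest to Cxcl12 were Crip2 (0.07), S100a1 (0.08) and Adam8 (0.09). Vwa1 (0.02), Ccdc22 (0.03) and Cers4 (0.03) were nearest to Cxcl16. None of these 12 genes is a chemokine. The members that passed were not among each other's nearest, which followed from their unlike log2 differences (-3.92, -2.40, -1.68 and 0.48).

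Other genes of the chemokine system and of the pathways known to control it were examined in 6 lists, of which 66 genes were measured. KO was higher for 8 of them, lower for 12, and 46 missed the threshold, so that 30.3% were called, against 22.5% of all probes. Mapk14, deficient in KO by design, is among the 12. The 40.0% of calls that were higher compare with 46.3% over all probes, and under median scaling these became 68.4% and 64.1%, so the balance of directions in the lists rests on the scaling. The median difference in the 6 lists was 0.01, beside -0.01 over all probes.

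Most of the other CXC ligands gave little signal. Of 5 other CXC ligands none passed in limma, none was under an unadjusted p of 0.05, and 4 were near background on every array. Pf4, a platelet chemokine, had the smallest p (-0.08, adjusted p = 0.351). Cxcl17, a chemokine of mucosal tissues named after its values were seen, was the only one above background, at 553, 558 and 622 in KO and 423, 429 and 360.3 in WT (0.18, adjusted p = 0.368). It passed under median scaling alone (0.36, adjusted p = 0.0122).

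Of 6 receptors measured, 1 was higher and 1 lower, or 33.3% called, beside 22.5% of all probes. Ackr3, the scavenging receptor of Cxcl12, read 20.5, 16.6 and 22.2 in KO, near background on every array, against 26.6, 26.3 and 26.9 in WT, above background on every array. Its difference was -0.20 (SE 0.06, limma adjusted p = 0.0496), and the call held under only 3 of 16 alternatives. Cxcr6, the receptor of Cxcl16, named after its values were seen, was above background on 2 of 3 KO arrays and on no WT array, with a difference of 0.39 (SE 0.08, limma adjusted p = 0.00817), at least 1.02-fold higher. Cxcr5, also named after its values were seen, was the only measured receptor above background on all 6 arrays. It did not pass (0.02, limma adjusted p = 0.885). The neutrophil chemokine receptor Cxcr2 and the Cx3cl1 receptor Cx3cr1 were near background on all 6 arrays. Among 9 proteases and regulators that shed or cleave chemokines, Mmp2, which can inactivate Cxcl12, was the only one that passed, at 56.1, 53.8 and 40.6 in KO against 141, 148 and 132 in WT (-1.08, SE 0.05, limma adjusted p = 6.74e-06). The share called in this list was 11.1%, beside 22.5% of all probes. Adam10 was near background throughout, and Adam17 differed by 0.23 (adjusted p = 0.0833).

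In the list of NF-kB and inflammatory receptor signalling, which drives transcription of Cxcl1, Cxcl2 and Cxcl5 in many cells, 24 genes were measured. KO cells had higher levels of 3 and lower levels of 3, and the remaining 18 missed the threshold. The share called, 6 of 24 or 25%, was close to the 22.5% of all probes, and under median scaling 6 were higher and 2 lower. Tlr2, a receptor for bacterial lipoproteins, averaged 7.48 ± 0.03 in KO and 8.06 ± 0.06 in WT on the log2 scale (-0.58, limma adjusted p = 2.38e-04). Ikbkg, the regulatory subunit of the IkB kinase, averaged 7.03 ± 0.14 in KO and 6.39 ± 0.04 in WT (0.65, adjusted p = 7.44e-04). Tnfrsf1a, the main TNF receptor, averaged 8.68 ± 0.16 in KO and 8.06 ± 0.17 in WT (0.61, adjusted p = 0.00559).

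Of 7 measured genes of p38-MK2 signalling and control of mRNA stability, 2 were higher, 2 lower and 3 did not pass. The share called was 57.1%, beside 22.5% of all probes. Median scaling gave 2 higher and 1 lower, or 42.9% of the list. Both shares include Mapk14, the gene deficient in KO, whose lower signal is a feature of the design. Mapkapk2 (MK2) and Mapkapk3 were not analysed here, so Mapk14 is the only p38-MK2 kinase in these shares. Besides Mapk14, Hnrnpd (AUF1), which binds AU-rich mRNAs, was lower, at 10.34 ± 0.31 in KO and 11.22 ± 0.21 in WT (-0.88, limma adjusted p = 0.00656). It did not pass under median scaling (-0.68, adjusted p = 0.106). Traf3ip2, the adaptor Act1 of the IL-17 receptor, which is known to stabilise Cxcl1 mRNA, was higher, at 9.51 ± 0.14 in KO and 8.80 ± 0.09 in WT (0.71, adjusted p = 6.11e-04). Zfp36 (tristetraprolin), which promotes decay of AU-rich mRNAs and is controlled by p38 signalling, was named after its values were seen. It read 222, 178 and 249.9 in KO, against 85.1, 88.4 and 95.9 in WT, so all KO arrays were above all WT arrays (0.69, SE 0.14, adjusted p = 0.00874).

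Of 15 genes of the interferon signalling that induces Cxcl9 and Cxcl10, KO was higher for 2, lower for 5 and not called for 8. The share called was 46.7%, beside 22.5% of all probes. Under median scaling 2 were higher and 2 lower, or 26.7% of the list. The lower calls lost there, named after their values were seen, were Ifngr2 (adjusted p = 0.0604), Socs1 (adjusted p = 0.159) and Jak1 (adjusted p = 0.971). Socs1 kept its call under 11 of 16 alternatives and Jak1 under 3. Irf1, a transcription factor for both ligands, averaged 7.20 ± 0.07 in KO and 7.84 ± 0.12 in WT (-0.64, limma adjusted p = 6.05e-04). Ifngr1, the ligand-binding chain of the interferon-gamma receptor, averaged 6.11 ± 0.14 in KO, above background on 1 of 3 arrays, and 6.58 ± 0.06 in WT (-0.47, adjusted p = 0.00393). Tyk2, a Janus kinase, averaged 8.40 ± 0.11 in KO and 7.65 ± 0.02 in WT (0.75, adjusted p = 1.50e-04). Cxcl9 was near background on all 6 arrays and Cxcl10 on 5 of them.

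**Figure D4:**
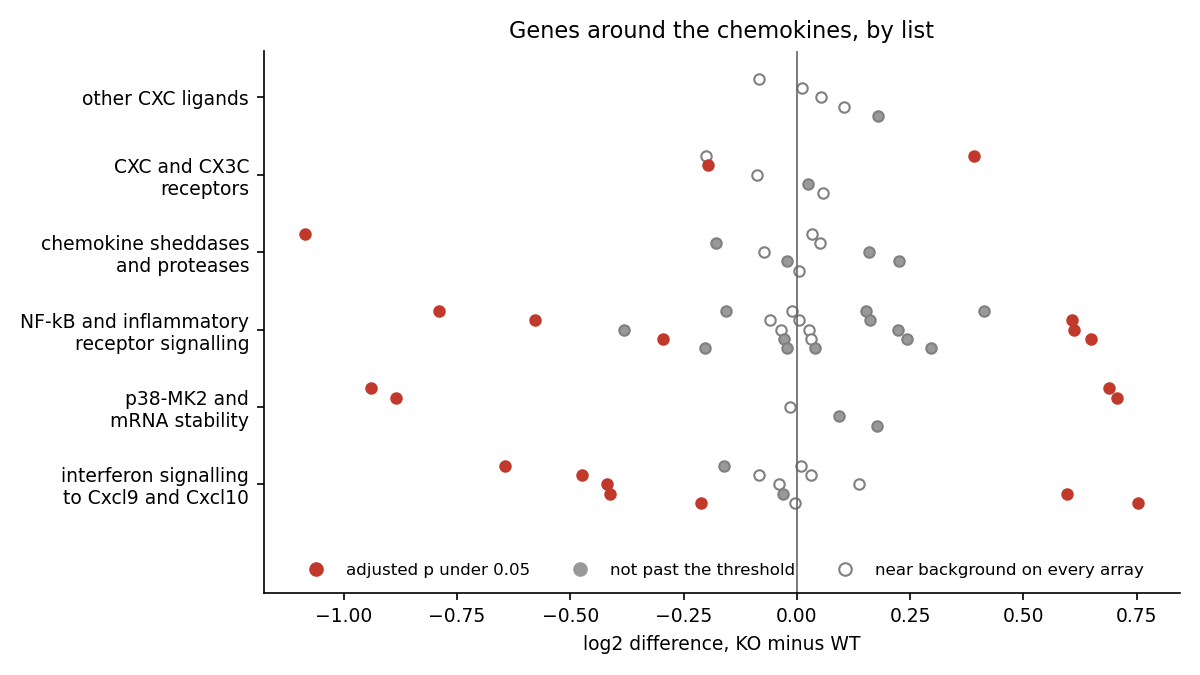
Log2 difference, KO minus WT, of each measured gene in 6 lists around the chemokines, with 1 point per gene and the vertical spread within a list only for legibility. Red points had an adjusted p under 0.05, grey points did not, and open points were near background on every array. With quantile normalization the receptors, NF-kB, p38-MK2 and interferon lists hold red points on both sides of 0 and the other CXC ligands hold none, while median scaling leaves the receptors no lower call and gives the other CXC ligands 1 higher call.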

How the data were processed

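RNA was measured on 6 CodeLink 20K mouse arrays, 3 KO and 3 WT. Per the labels each array had a Cy5 sample and a Cy3 pool, but each file holds 1 channel, analysed as that of the culture it names. Were it the pool's channel, the 3 arrays of each genotype would repeat a single RNA. The deposited files give spot and local background intensity, the difference of spot mean and median background, and a normalized intensity. The normalized intensity was taken to be that difference divided by 1 constant per array, estimated here as a median over probes. The submitters' processing notes name limma, and no source used here names the scanning software. The authors' value table repeats these values with KO replicates 2 and 3 exchanged in all 19800 rows (within 1e-05). The files' internal names of this pair are likewise switched relative to the titles, which are followed here.

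Background was corrected with normexp (offset 50) in limma 3.58.1 (R 4.3.3). Masked, contaminated and irregular spots (none of a chemokine) were omitted, and log2 values were quantile normalized. Probes were fitted with lmFit and eBayes, two-sided, with Benjamini-Hochberg adjustment over 19608 probes. The offset pulls differences of dim probes toward 0. "Near background" is the scanner software's mark, and a masked spot does not count as near background. Where every array of 1 group had it, "at least" folds set the brighter group's mean against the higher of that probe and the lowest signal above background on each array of the dimmer group. The array number limits the precision. The fit was also run on simulated arrays with equal noise and with changes in brighter probes only. That run does not cover dim probes or an array like KO replicate 3.

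Probes were named through RefSeq accessions in a table of GRCm38.p6, which matched 10712 probes. The 9 members, Mapk14, up to 3 called genes per list that were detected on every array of the brighter genotype (or the 1 with the smallest p), neighbours, and the 3 most similar genes per called member are named. The members and lists were chosen with earlier results of these data known. Alternatives were other background, normalization and filter settings, array weights, a replicate block, and each array left out. The authors' values entered as log2(value + 0.5), with values below 0 set to 0.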

Additional observations from a re-analysis of the deposited data

How the results depend on the processing

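Of 153 differences recomputed for the 9 chemokines and Mapk14 under 16 alternatives, 144 kept their direction and side of the threshold. The others were 3 gained calls of Cxcl2 and 6 changes of sign of Cxcl14 and Cx3cl1, neither of which passed anywhere. Cxcl14 was -0.019 with median scaling, -0.0093 with array weights and -0.017 without KO replicate 3, and with 1 array left out it ranged from -0.017 to 0.066. Cx3cl1 was -0.10 with array weights, -0.15 without KO replicate 3 and -0.027 without WT replicate 1, and with 1 array left out it ranged from -0.15 to 0.14. The cause was not tested. Of the chemokines, 4 or 5 passed under every alternative, the fifth being Cxcl2. Over all probes, 2717 passed with offset 0, against 4420, and 3186 to 5815 when 1 array was left out. In the 6 lists 14 to 23 of 66 genes passed, against 20. Deviations of same-numbered arrays correlated at 0.24, -0.12 and 0.10. KO replicate 2 correlated best with WT replicate 1 (0.19), and KO replicate 3 with WT replicate 2 (0.20). With so few arrays, and with KO replicates 2 and 3 exchanged between titles and internal names, this cannot decide whether the numbers pair the arrays. With the replicate number as a block, 4 chemokines and 4299 probes passed, and Cxcl1 had an adjusted p of 5.61e-06. A block for slide or scan was not run, since each array has its own number. Weak signal limits Cxcl2, Cxcl9, Cxcl10 and Cxcl14 in both genotypes, Cxcl12 in KO and Cxcl16 in WT. Cxcl5 and Cxcl16 in KO were above background but dim, with log2 means of 6.38 and 6.41. The lowest signals counted as above background on the KO arrays were 6.10 to 6.24.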
